A study of Mus musculus with 9 samples.

Results

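Radial glia are the neural stem cells that line the ventricle of the embryonic cortex, and 34 genes that mark these cells or pattern the cortical sheet were followed here in cortex with and without Sfpq. The genes were chosen by name, from their known roles but with earlier results of these data known. Each was read from the probe sets annotated to that gene alone. All 34 were measured, among 16854 genes tested. RNA was taken from the cerebral cortex of E13.5 mouse embryos and read on Affymetrix Mouse Exon 1.0 ST arrays, which carry probe sets for separate exons, with 1 array per sample and 9 in all. The 3 groups held 3 arrays each: controls labelled wild type, heterozygotes labelled Sfpq+/-, and homozygotes labelled Sfpq-/-. The protein Sfpq binds RNA in the nucleus and acts in transcription and RNA processing. The labels used here name no Cre driver, deleted exon, strain or litter, so it is not known from them which cells of the cortex lost Sfpq or whether control and mutant embryos were littermates, and p-values reflect only the variation among these samples.

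Radial glia divide at the ventricle, renew themselves and give rise to intermediate progenitors and neurons, and they guide those neurons along their long basal fibres. SOX and PAX transcription factors keep them in the progenitor state, while graded LIM, EMX and COUP-TF factors set which area of the cortex their offspring will form. Hedgehog, FGF and BMP signals reach these cells through receptors, and their effectors include the GLI factors, the D-type cyclins and the Id proteins.

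Groups were taken from titles and genotype fields, since the extraction protocol mentions Sfpq+/- brains in 2 places and Sfpq-/- brains in none. The group labels were first checked on the arrays. The 12 of 23 Sfpq probe sets with a control mean above 10 on the log2 scale averaged 12.09, 12.07 and 12.12 in controls, 12.08, 11.87 and 11.93 in Sfpq+/-, and 10.08, 10.31 and 9.99 in Sfpq-/- cortex. On these probe sets the Sfpq-/- arrays were the low ones, and Sfpq signal did not separate the Sfpq+/- arrays from controls. Because these probe sets were chosen by their control level and the other Sfpq probe sets were not averaged, they do not give the size of the fall. Xist was high, between 11.48 and 11.79, on control arrays 1 and 2 and on Sfpq-/- array 1, and it lay between 4.90 and 5.87 on the other 6, which were high for the Y-linked gene Kdm5d; all 3 Sfpq+/- arrays thus came from the second kind, so embryo sex was not balanced. The cortical genes Pax6, Emx1, Lhx2, Tbr1, Neurod6 and Eomes had signal above the limit for dim probe sets (5.64) on all 9 arrays. Array medians ran from 5.648 to 5.697, and the 3 arrays per group limit the precision.

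In Sfpq-/- cortex the hedgehog effector Gli2 fell 2.36-fold, the chromatin protein gene Hmga2 fell 1.5-fold, and the POU factors Pou3f2 and Pou3f3, the LIM factor Lhx2, the zinc finger gene Sall1, the FGF receptor Fgfr3, the bHLH inhibitor Id2 and the cyclin Ccnd2 fell between 1.21-fold and 1.42-fold. The cyclin Ccnd1 rose 1.29-fold. The classical radial glial markers Pax6, Sox2, Nes, Vim, Fabp7 and Slc1a3 did not pass the test, though Slc1a3 passed, as higher, in 2 of 14 alternatives in processing. Among 25 other measured radial glia genes, 7 were lower and 0 higher (28%, where 12.1% of all genes passed). Against controls, 10 of the 34 genes passed limma's test at an adjusted p under 0.05, 9 lower and 1 higher, where 12.1% of all genes passed, 6.12% lower and 5.98% higher. The median log2 change was -0.11 over the 34 genes and 0.03 over all genes tested. In whole tissue, fewer cells of a type and less RNA per cell cannot be told apart. Levels below are log2 signals averaged over a gene's probe sets, changes are differences between group means on that scale, and the values of a group are given in the order of replicate number.

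**Figure D1:**
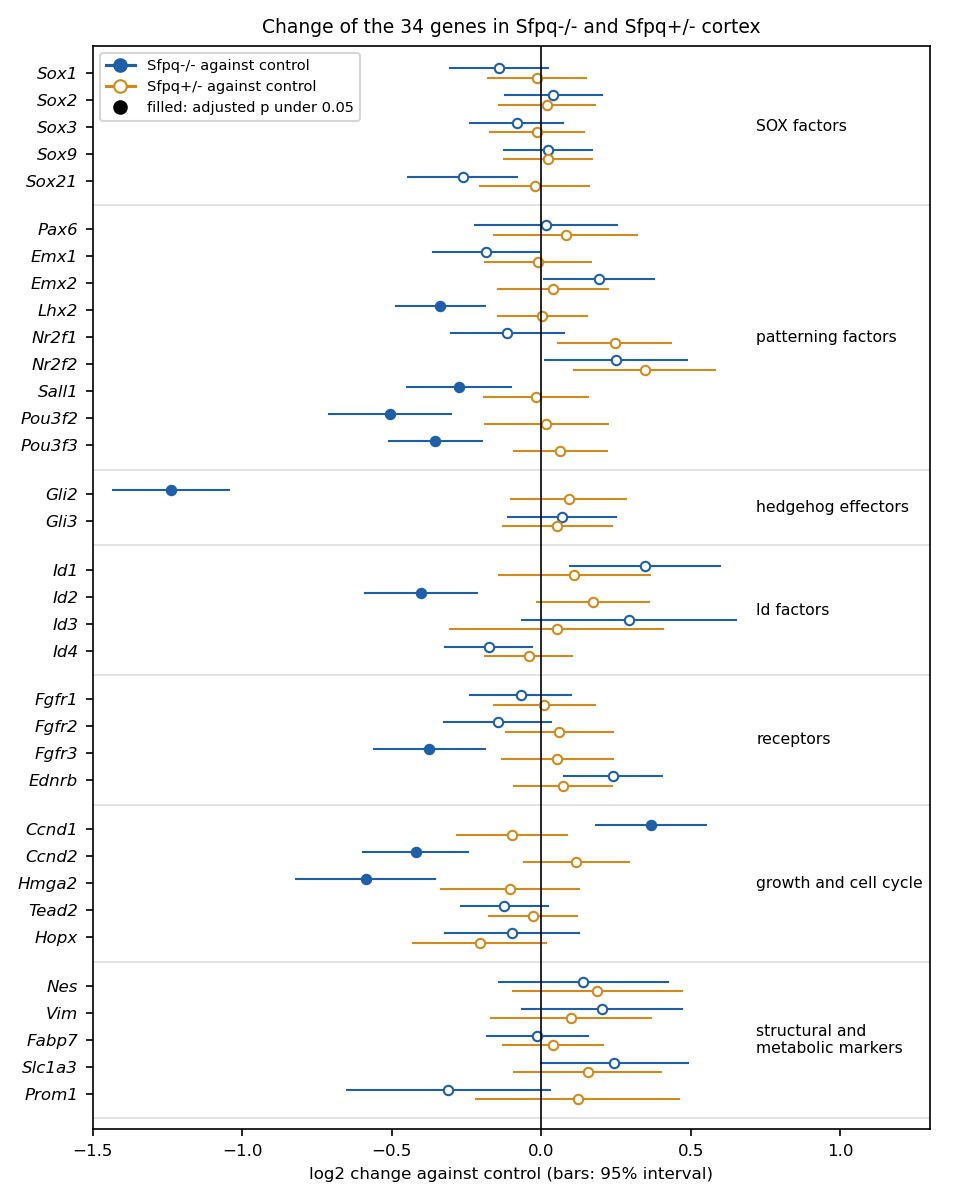
Log2 change of each of the 34 genes against control (horizontal axis), with Sfpq-/- in blue and Sfpq+/- in orange, points for the estimate, bars for the 95% interval and filled points for an adjusted p under 0.05. The 10 filled points all belong to Sfpq-/-; Gli2 at -1.24 lies farthest from 0, and Ccnd1 at 0.37 is the only filled point to the right.

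Some markers of other cells in the dissected tissue also changed in the Sfpq-/- group. The 16 markers of dorsal midline, choroid plexus and diencephalon averaged 8.96 to 9.001 in controls and 9.25 to 9.48 in Sfpq-/-. Of these, 5 were higher, 0 lower and 11 not called (31.25% passed, where 12.1% of all genes did). The 5 were led by Olig3 (log2 change 3.08) and Barhl2 (0.88), with Tcf7l2 (0.81), Lhx9 (0.54) and Rspo3 (0.32). Lhx9 and Rspo3 lost their calls without Sfpq-/- replicate 1 (adjusted p = 0.0519 and 0.109), and Rspo3 also without any of control replicates 1, 2 and 3 and Sfpq-/- replicate 2, with the median of probe sets (0.0719), with only the compared groups (0.0547) and with embryo sex as a covariate (0.0563). The choroid plexus gene Ttr, at 12.49, 12.48 and 12.57 in controls and 12.64, 12.70 and 12.51 in Sfpq-/-, was not called. The 14 endothelial, pericyte and microglial markers averaged 8.41 to 8.51 in controls and 8.57 to 8.74 in Sfpq-/-. Among them 5 were higher by 0.28 to 0.35 (Rgs5, P2ry12, C1qb, C1qc and Cx3cr1) and 0 lower (35.7%, where 12.1% of all genes passed). Each of these 5 calls was lost without control replicate 1 or 2 or Sfpq-/- replicate 1. Each was also lost without at least 2 of the other 3 control and Sfpq-/- arrays. The limma adjusted p reached 0.182 (C1qc without Sfpq-/- replicate 1). All 5 calls were also lost with only the compared groups (adjusted p up to 0.0898) or with embryo sex as a covariate (up to 0.0878), and with the median of probe sets Rgs5 changed by 0.13 (0.781). None of 11 meningeal and none of 6 erythroid markers was called. An unadjusted limma p under 0.05 was found for 0 and 2 of them, and for 4073 of all 16854 genes. The part of these cells in the changes of the 34 genes was not tested.

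Neurons and intermediate progenitors, the offspring of radial glia, were read from 15 markers, which averaged 10.70 to 10.74 in controls and 10.64 to 10.68 in Sfpq-/-. Among the 15, 4 were lower and 1 higher (33.3%, where 12.1% of all genes passed). The proneural factor Neurog2 (-0.92), the zinc finger factor Insm1 (-0.37), the neuronal factor Neurod6 (-0.41) and the intermediate progenitor factor Eomes (-0.23) fell, and Neurod1 rose by 0.36. The calls of Eomes and Neurod1 were lost without control replicate 1 or 2 or Sfpq-/- replicate 1, that of Eomes also without control replicate 3 or Sfpq-/- replicate 2 and that of Neurod1 without Sfpq-/- replicate 3; without control replicate 2 the adjusted p was 0.158 for Eomes and 0.108 for Neurod1. Both calls were also lost with only the compared groups in the fit (adjusted p = 0.118 and 0.0761) or with embryo sex as a covariate (0.0570 and 0.0629), and Eomes lost its call in 10 of the 14 alternatives. With the median of probe sets Insm1 changed by -0.22 (adjusted p = 0.183) and Neurod6 by -0.36 (0.0945), and neither passed. Their part in the changes of the 34 genes was not tested either.

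GLI proteins carry the hedgehog signal to the nucleus, Gli2 mainly as an activator and Gli3 mainly as a repressor, and Gli3 is needed to form the dorsal telencephalon. The sequences around their starts are shown because Gli2 had the largest change of the 34 genes while its paralog was not called. The RefSeq windows of 300 bases that span the start (build GRCm38.p6) lie at chr1:119053570-119053869 on the minus strand for Gli2 and at chr13:15463473-15463772 on the plus strand for Gli3, with capitals marking the GC box, GGGCGG on either strand.
Gli2: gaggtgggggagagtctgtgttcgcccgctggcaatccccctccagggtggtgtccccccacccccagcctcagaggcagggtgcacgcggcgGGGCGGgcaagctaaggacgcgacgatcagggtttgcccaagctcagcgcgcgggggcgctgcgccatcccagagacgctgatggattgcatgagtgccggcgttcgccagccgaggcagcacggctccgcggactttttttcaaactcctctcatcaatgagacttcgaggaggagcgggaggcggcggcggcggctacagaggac
Gli3: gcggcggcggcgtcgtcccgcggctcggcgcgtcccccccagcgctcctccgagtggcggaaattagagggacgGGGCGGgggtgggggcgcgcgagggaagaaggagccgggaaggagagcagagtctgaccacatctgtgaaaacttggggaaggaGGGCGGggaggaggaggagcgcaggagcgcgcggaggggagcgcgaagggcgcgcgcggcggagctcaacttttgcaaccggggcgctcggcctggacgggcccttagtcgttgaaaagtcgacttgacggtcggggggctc
The Gli2 window held 1 GC box at 67.3% G and C, and the Gli3 window 2 at 71.0%; neither held a CCAAT box, the TATAAA motif, an E box (CAGCTG) or a GLI site (GACCACCCA). Of the 34 genes 28 had a window in the table, 36 windows in all. Their median share of G and C was 60.8%, against 52.7% in the windows of all genes. A GC box was in 22 of the 36 windows, against 35.7% of 32851 windows of all genes on either strand. A CCAAT box was in 18 (37.4% of all windows), the TATAAA motif in 2 (13.6%), an E box in 3 (16.3%) and a GLI site in 0 (0.253%).

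Gli2 read 9.18, 9.15 and 9.29 in controls, 9.36, 9.27 and 9.27 in Sfpq+/-, and 7.97, 8.12 and 7.82 in Sfpq-/- cortex. Every Sfpq-/- array lay more than 1 log2 unit below every control and Sfpq+/- array. The change against control was -1.24 (SE 0.088, 95% interval -1.43 to -1.04, limma adjusted p = 5.99e-06), and it ran from -1.31 to -1.16 across the 14 alternatives in processing. Gli3 read 10.72, 10.78 and 10.73 in controls, 10.82, 10.76 and 10.81 in Sfpq+/-, and 10.82, 10.96 and 10.67 in Sfpq-/-. The Gli3 groups overlapped, and the change of 0.07 had an interval from -0.11 to 0.25 (limma adjusted p = 0.69).

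The fall of Gli2 was spread over the gene but not evenly. All 19 of its probe sets had a negative change, and 14 passed the test, with changes down to -2.08. Of all probe sets on the array that were kept, 1.75% passed, 1.19% lower and 0.561% higher. The brightest Gli2 probe set read 11.84, 11.84 and 12.13 in controls and 9.85, 10.35 and 9.74 in Sfpq-/-, a change of -1.95, while 2 others with control means of 7.87 and 8.08 changed by -0.04 each. On the difference of each probe set from its gene mean, 5 Gli2 probe sets departed, 4 above and the brightest 1 below (adjusted p = 0.0235), where 0.926% of probe sets departed. The positions of these probe sets within the gene were not used here. Of the 22 Gli3 probe sets, 1 was higher, reading 8.33, 7.76 and 7.35 in controls and 9.10, 9.08 and 8.88 in Sfpq-/- (change 1.21, adjusted p = 0.0340), and its departure from the Gli3 mean missed the threshold (adjusted p = 0.0502).

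**Figure D2:**
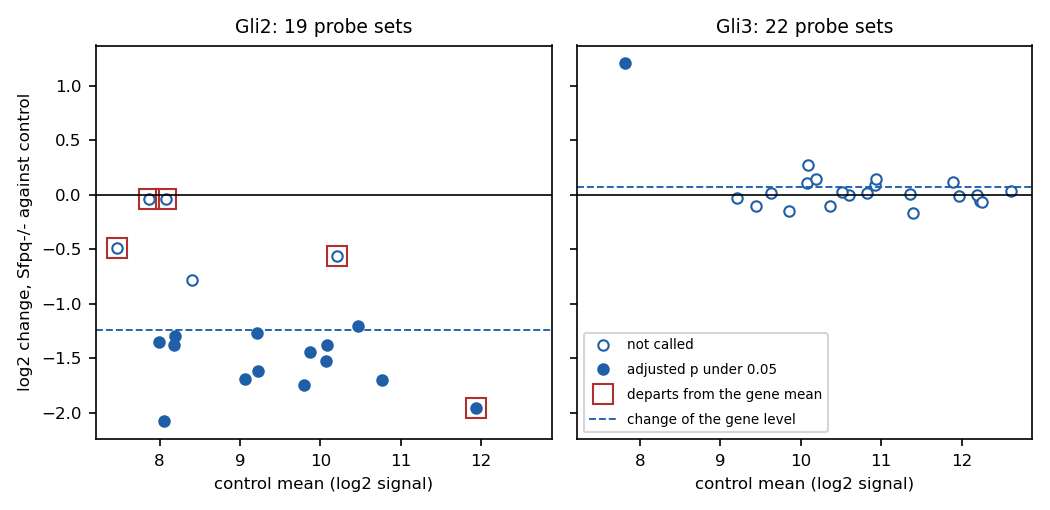
Log2 change in Sfpq-/- against control (vertical axis) of each Gli2 and Gli3 probe set by its control mean (horizontal axis, log2 signal), with filled points for an adjusted p under 0.05, squares for departure from the gene mean and a dashed line at the change of the gene. The 19 Gli2 points lie between -2.08 and -0.04, and the Gli3 points lie near 0 except 1 at 1.21.

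Among 11 other measured hedgehog pathway genes, 1 was higher and 1 lower in Sfpq-/- (18.2%, where 12.1% of all genes passed). Ptch1, the hedgehog receptor and a transcriptional target of the pathway, read 9.57, 9.30 and 9.21 in controls, 9.10, 9.31 and 9.41 in Sfpq+/-, and 10.09, 9.88 and 10.003 in Sfpq-/-. The Sfpq-/- arrays lay above all others, and Ptch1 rose by 0.63 (SE 0.11, limma adjusted p = 0.00326). Cdon, a hedgehog co-receptor, read 11.78, 11.78 and 11.80 in controls and 11.33, 11.49 and 11.14 in Sfpq-/- and fell by 0.47 (limma adjusted p = 0.00482). Gli1, another pathway target, changed by 0.16 (limma adjusted p = 0.198) and Smo, the signal transducer, by -0.18 (adjusted p = 0.206), and neither passed. Shh itself spread widely, at 8.25, 6.91 and 6.77 in controls and 8.02, 7.08 and 7.83 in Sfpq-/-. Markers of the ganglionic eminence, the ventral neighbour of the cortex, averaged 9.10 on control array 1 against 8.48 and 8.18 on the other controls and 8.39 to 8.58 in Sfpq-/-, with Gad1 higher by 0.98 and 0 of 13 lower, so control array 1 stood high for ventral markers, for Shh and, among controls, for Ptch1. The part of ventral tissue in the hedgehog values was not tested.

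FGF receptors receive the signals that pattern the front of the cortex and keep radial glia dividing. Fgfr3 read 9.91, 9.90 and 10.03 in controls, 9.95, 10.06 and 9.996 in Sfpq+/-, and 9.63, 9.67 and 9.42 in Sfpq-/-. Its Sfpq-/- arrays were below all others, and it fell by 0.37 (SE 0.084, interval -0.56 to -0.19, limma adjusted p = 0.0138), with a negative change in 28 of 29 probe sets. That call was lost without control replicate 3 (adjusted p = 0.0572) and when gene levels were medians of probe sets (0.0788). Fgfr1 read 10.22, 10.18 and 10.22 in controls, 10.22, 10.16 and 10.28 in Sfpq+/-, and 10.12, 10.25 and 10.04 in Sfpq-/- (change -0.07, interval -0.24 to 0.10). Fgfr2 read 10.22, 10.16 and 10.16 in controls, 10.28, 10.27 and 10.18 in Sfpq+/-, and 10.08, 10.15 and 9.89 in Sfpq-/- (change -0.15, interval -0.32 to 0.03). Neither passed, although the Fgfr2 arrays of Sfpq-/- lay below those of controls.

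A list of 15 FGF signalling genes held genes that answer or restrain the signal and the ligand genes Fgf8, Fgf15, Fgf17, Fgf18 and Fgf2. Of the 15, 1 was lower and 1 higher in Sfpq-/- (13.3%, close to the 12.1% of all genes that passed). The inhibitor Spred2 read 9.33, 9.29 and 9.29 in controls and 8.91, 8.93 and 8.69 in Sfpq-/- (change -0.46, limma adjusted p = 0.0033), a call lost with the median of its probe sets (change -0.32, adjusted p = 0.129). The ERK phosphatase gene Dusp6 read 10.13, 10.21 and 10.21 in controls and 10.72, 10.44 and 10.88 in Sfpq-/- (change 0.50, limma adjusted p = 0.0315), a call lost without any of the control arrays, Sfpq-/- replicate 1 or Sfpq-/- replicate 3 (adjusted p up to 0.11), with quantile normalization (0.0509) and with embryo sex as a covariate (0.0527). Ednrb, the endothelin receptor found on radial glia, read 9.93, 9.78 and 9.97 in controls, 9.99, 9.90 and 9.99 in Sfpq+/-, and 10.11, 10.15 and 10.13 in Sfpq-/-. The Sfpq-/- arrays lay just above all others, and the change of 0.24 (interval 0.08 to 0.41) did not pass the test (limma adjusted p = 0.0617), though it passed with only probe sets above the 75th percentile (0.25, adjusted p = 0.0223) and with gene-by-gene array weights (0.29, 0.00529).

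The SoxB1 factors Sox1, Sox2 and Sox3, which hold neural progenitors in an undifferentiated state, did not pass the test in Sfpq-/- cortex. Sox2 read 11.88, 11.95 and 11.84 in controls, 11.92, 11.87 and 11.94 in Sfpq+/-, and 12.002, 11.96 and 11.83 in Sfpq-/-, with overlapping groups and a change of 0.04 (interval -0.12 to 0.20). Sox1 read 10.16, 10.13 and 10.01 in controls and 10.03, 9.89 and 9.95 in Sfpq-/- (change -0.14, limma adjusted p = 0.282). Sox3 read 9.98, 9.93 and 9.92 in controls and 9.93, 9.77 and 9.88 in Sfpq-/- (change -0.08, limma adjusted p = 0.557). Sox9, a SoxE factor of neural stem cells and later glia, read 11.68, 11.67 and 11.68 in controls, 11.70, 11.70 and 11.71 in Sfpq+/-, and 11.68, 11.78 and 11.65 in Sfpq-/-, a change of 0.02 (interval -0.12 to 0.17). Sox21, which in chick embryos opposes the SoxB1 factors, read 9.82, 9.76 and 9.71 in controls, 9.70, 9.78 and 9.75 in Sfpq+/-, and 9.66, 9.46 and 9.39 in Sfpq-/-. Its Sfpq-/- arrays were all below the others, yet the change of -0.26 (interval -0.45 to -0.08) missed the threshold (limma adjusted p = 0.0673), and it passed without Sfpq-/- replicate 1 (adjusted p = 0.0318), with only probe sets above the 75th percentile (0.0409) and with quantile normalization (0.0446).

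Pax6 directs progenitors to a cortical fate and to neurogenesis. It was read by 47 probe sets, at 9.21, 9.14 and 8.99 in controls, 9.23, 9.24 and 9.12 in Sfpq+/-, and 9.29, 9.21 and 8.89 in Sfpq-/-. The groups overlapped, and the change of 0.01 had an interval from -0.22 to 0.25 (limma adjusted p = 0.959). Lhx2, a selector of cortical identity against the midline, read 11.86, 11.93 and 11.94 in controls, 11.90, 11.87 and 11.97 in Sfpq+/-, and 11.55, 11.56 and 11.61 in Sfpq-/-. It fell by 0.34 (SE 0.068, interval -0.49 to -0.19, limma adjusted p = 0.007), with a negative change in all 10 probe sets, and its call was lost only with the median of the probe sets (adjusted p = 0.0625) among the 14 alternatives.

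The EMX factors, of which Emx2 promotes caudal and medial areas, had changes of opposite sign. Emx1 read 8.77, 8.85 and 8.91 in controls, 8.93, 8.85 and 8.72 in Sfpq+/-, and 8.72, 8.58 and 8.67 in Sfpq-/- (change -0.18, limma adjusted p = 0.189). Emx2 read 10.18, 10.17 and 10.17 in controls, 10.12, 10.28 and 10.24 in Sfpq+/-, and 10.49, 10.38 and 10.22 in Sfpq-/- (change 0.19, limma adjusted p = 0.181). Neither group of Sfpq-/- arrays overlapped its controls, but neither change passed the test. Emx2 passed without Sfpq-/- replicate 3 (0.27, adjusted p = 0.0497) and with gene-by-gene array weights (0.28, 0.00689).

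Nr2f1 and Nr2f2, the COUP-TF receptors that favour caudal sensory areas, had their highest group means in Sfpq+/- cortex. Nr2f1 read 9.40, 9.44 and 9.45 in controls, 9.71, 9.80 and 9.52 in Sfpq+/-, and 9.25, 9.40 and 9.30 in Sfpq-/- (change against control -0.11, interval -0.30 to 0.08). Nr2f2 read 8.75, 9.02 and 8.91 in controls, 9.16, 9.40 and 9.14 in Sfpq+/-, and 9.03, 9.08 and 9.31 in Sfpq-/- (0.25, interval 0.01 to 0.49, limma adjusted p = 0.181). Sall1, a zinc finger repressor, read 10.30, 10.31 and 10.37 in controls, 10.36, 10.25 and 10.32 in Sfpq+/-, and 10.13, 10.11 and 9.91 in Sfpq-/-. Its fall by 0.27 (SE 0.079) was the weakest of the 10 calls (limma adjusted p = 0.0462), and it was lost in 8 of the 14 alternatives. These were leaving out any of control replicates 1, 2 and 3 (adjusted p = 0.0879, 0.119 and 0.139), Sfpq-/- replicate 1 (0.0704) or Sfpq-/- replicate 3 (0.0929), keeping dim probe sets (0.0701), fitting only the compared groups (0.105) and adding embryo sex as a covariate (0.0812).

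Pou3f2 and Pou3f3, also called Brn2 and Brn1, act together in cortical progenitors and in the making of upper-layer neurons. They fell together in Sfpq-/- cortex, and their start regions are shown for that reason, at chr4:22488317-22488616 on the minus strand for Pou3f2 and chr1:42695518-42695817 on the plus strand for Pou3f3 (RefSeq, GRCm38.p6, capitals marking GGGCGG on either strand).
Pou3f2: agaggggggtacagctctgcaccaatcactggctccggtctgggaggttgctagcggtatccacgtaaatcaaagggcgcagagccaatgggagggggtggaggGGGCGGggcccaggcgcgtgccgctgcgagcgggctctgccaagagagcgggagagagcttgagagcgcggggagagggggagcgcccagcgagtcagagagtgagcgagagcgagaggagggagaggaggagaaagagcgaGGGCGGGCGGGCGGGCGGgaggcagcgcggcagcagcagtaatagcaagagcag
Pou3f3: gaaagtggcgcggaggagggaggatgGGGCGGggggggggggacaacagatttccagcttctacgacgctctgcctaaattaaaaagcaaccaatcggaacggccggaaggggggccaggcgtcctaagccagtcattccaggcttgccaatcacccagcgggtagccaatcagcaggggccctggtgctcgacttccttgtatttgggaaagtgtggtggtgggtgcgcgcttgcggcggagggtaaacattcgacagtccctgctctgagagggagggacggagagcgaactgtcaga
The Pou3f2 window held 5 GC boxes, 4 of them overlapping in 1 run and counted separately, and 2 CCAAT boxes. The Pou3f3 window held 1 GC box and 3 CCAAT boxes. The TATAAA motif, E box and GLI site were in neither.

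Pou3f2 read 9.99, 9.76 and 9.85 in controls, 10.01, 9.76 and 9.87 in Sfpq+/-, and 9.39, 9.43 and 9.25 in Sfpq-/-. Pou3f3 read 10.35, 10.39 and 10.41 in controls, 10.48, 10.43 and 10.43 in Sfpq+/-, and 10.04, 9.94 and 10.10 in Sfpq-/-. For both genes the Sfpq-/- arrays lay below all others. Pou3f2 fell by 0.51 (SE 0.093, interval -0.71 to -0.30, limma adjusted p = 0.00413), with all 8 probe sets negative and the call kept in all 14 alternatives. Pou3f3 fell by 0.35 (SE 0.070, interval -0.51 to -0.20, limma adjusted p = 0.00677), with all 7 probe sets negative. With the median of its probe sets the Pou3f3 change was -0.21 (adjusted p = 0.328).

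Of 22 other measured cortical patterning genes, 5 were higher and 5 lower in Sfpq-/- (45.5%, where 12.1% of all genes passed). The nuclear receptor gene Rorb read 8.19, 7.87 and 8.09 in controls and 6.73, 6.67 and 6.72 in Sfpq-/-, a fall by 1.34 (SE 0.11, limma adjusted p = 1.2e-05). The ephrin gene Efna5 (-0.89), the cadherin gene Cdh6 (-0.71) and the zinc finger factor Fezf2 (-0.49), which specifies deep-layer projection neurons, also fell. The Wnt effector Tcf7l2, also counted among the diencephalon markers, rose by 0.81, and Sp5 rose by 0.42, a call lost without Sfpq-/- replicate 1 (0.35, adjusted p = 0.0531).

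Id proteins bind bHLH factors and keep them from DNA, and BMP signals are known to induce them. Of the 4 genes, 1 passed the test in Sfpq-/- cortex. Id2 read 11.63, 11.64 and 11.64 in controls, 11.77, 11.90 and 11.76 in Sfpq+/-, and 11.32, 11.31 and 11.07 in Sfpq-/-. It fell by 0.40 (SE 0.085, interval -0.59 to -0.21, limma adjusted p = 0.01), with all 4 probe sets negative and the call kept in all 14 alternatives. Id1 read 8.47, 8.49 and 8.59 in controls, 8.39, 8.79 and 8.70 in Sfpq+/-, and 8.70, 8.88 and 9.02 in Sfpq-/-. The Id1 arrays of Sfpq-/- lay above all control arrays, and the change of 0.35 (interval 0.10 to 0.60) did not pass (limma adjusted p = 0.0773); without the filter on dim probe sets it was 0.54 and passed (adjusted p = 0.00509). Id3 read 9.09, 9.38 and 8.88 in controls, 9.07, 9.34 and 9.09 in Sfpq+/-, and 9.34, 9.74 and 9.15 in Sfpq-/- (change 0.29, limma adjusted p = 0.311). Id4 read 12.22, 12.27 and 12.26 in controls, 12.18, 12.19 and 12.25 in Sfpq+/-, and 12.04, 12.12 and 12.06 in Sfpq-/- (change -0.17, interval -0.32 to -0.03, limma adjusted p = 0.126), and passed only with gene-by-gene array weights (-0.20, adjusted p = 0.0122) among the 14 alternatives. Of 17 measured BMP pathway genes, 0 passed limma's test in Sfpq-/- against control and 4 had an unadjusted p under 0.05, as did 4073 of all 16854 genes. Bmp6 was not measured here.

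D-type cyclins bring Cdk4 and Cdk6 into action in G1, and Ccnd2 and Ccnd1 are the cyclins of cortical progenitors. Ccnd2 read 11.97, 11.97 and 11.87 in controls, 12.17, 11.97 and 12.01 in Sfpq+/-, and 11.44, 11.57 and 11.53 in Sfpq-/-, a fall by 0.42 (SE 0.080, interval -0.60 to -0.24, limma adjusted p = 0.00506). Ccnd1 read 11.38, 11.41 and 11.25 in controls, 11.20, 11.18 and 11.38 in Sfpq+/-, and 11.64, 11.78 and 11.73 in Sfpq-/-, a rise by 0.37 (SE 0.083, interval 0.18 to 0.55, limma adjusted p = 0.0142). The Sfpq-/- arrays were all below the rest for Ccnd2 and all above the rest for Ccnd1, with 12 of 12 probe sets negative and 7 of 7 positive. The Ccnd1 call was lost without control replicate 3 (0.32, adjusted p = 0.0594); the Ccnd2 call held in all 14 alternatives.

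Of 17 partners and regulators of these cyclins, 1 was higher and 2 lower in Sfpq-/- (17.6%, where 12.1% of all genes passed). Cdkn2c, an inhibitor of Cdk4 and Cdk6, read 8.52, 8.52 and 8.28 in controls, 8.50, 8.63 and 8.52 in Sfpq+/-, and 7.44, 7.65 and 7.42 in Sfpq-/-. It fell by 0.94 (SE 0.093, limma adjusted p = 6.24e-05). Cdkn1a, the p53-responsive inhibitor, rose by 0.52 (limma adjusted p = 0.0161) and E2f3 fell by 0.41 (limma adjusted p = 0.0255), with both calls lost without Sfpq-/- replicate 1 (adjusted p = 0.0763 and 0.064), control replicate 1 or control replicate 2, and that of E2f3 also without Sfpq-/- replicate 3. Cdkn1a was also not called with dim probe sets kept (adjusted p = 0.0720), nor E2f3 with the median of probe sets (0.0719) or only the compared groups (0.0660). Cdk4 read 13.35, 13.31 and 13.23 in controls and 13.32, 13.29 and 13.28 in Sfpq-/-.

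Hmga2, a chromatin protein that sustains self-renewal of fetal neural stem cells, read 10.20, 10.30 and 10.09 in controls, 10.14, 9.999 and 10.14 in Sfpq+/-, and 9.67, 9.77 and 9.39 in Sfpq-/-. Its Sfpq-/- arrays lay below all others. It fell by 0.59 (SE 0.105, interval -0.82 to -0.36, limma adjusted p = 0.00351), with all 13 probe sets negative and 3 of them called. Tead2, the DNA-binding partner of YAP, read 10.46, 10.43 and 10.41 in controls and 10.37, 10.27 and 10.29 in Sfpq-/- (change -0.12, limma adjusted p = 0.298). Hopx, a marker of outer radial glia in humans, read 7.99, 8.25 and 8.13 in controls and 8.03, 8.12 and 7.92 in Sfpq-/- (change -0.10, limma adjusted p = 0.641).

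The structural and metabolic markers of radial glia did not pass the test. Fabp7, the brain lipid-binding protein, read 13.35, 13.36 and 13.29 in controls, 13.39, 13.40 and 13.34 in Sfpq+/-, and 13.35, 13.42 and 13.20 in Sfpq-/-, a change of -0.01 (interval -0.18 to 0.16). The groups overlapped throughout. The intermediate filament gene Nes read 10.31, 10.40 and 10.25 in controls and 10.34, 10.70 and 10.33 in Sfpq-/- (change 0.14, interval -0.14 to 0.42), and Vim read 11.75, 11.80 and 11.42 in controls and 11.77, 11.997 and 11.81 in Sfpq-/- (change 0.20, interval -0.07 to 0.47). The glutamate transporter gene Slc1a3 read 9.14, 8.80 and 8.75 in controls and 9.16, 9.26 and 9.004 in Sfpq-/- (0.25, limma adjusted p = 0.205), and passed without control replicate 1 (0.37, adjusted p = 0.0396) and with gene-by-gene array weights (0.31, 0.0163). Prom1, a membrane protein of apical processes, read 9.54, 9.48 and 9.26 in controls and 9.21, 9.43 and 8.71 in Sfpq-/- (change -0.31, interval -0.65 to 0.03), and its spread within Sfpq-/- (SD 0.37) was the widest of the 34 genes.

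**Figure D3:**
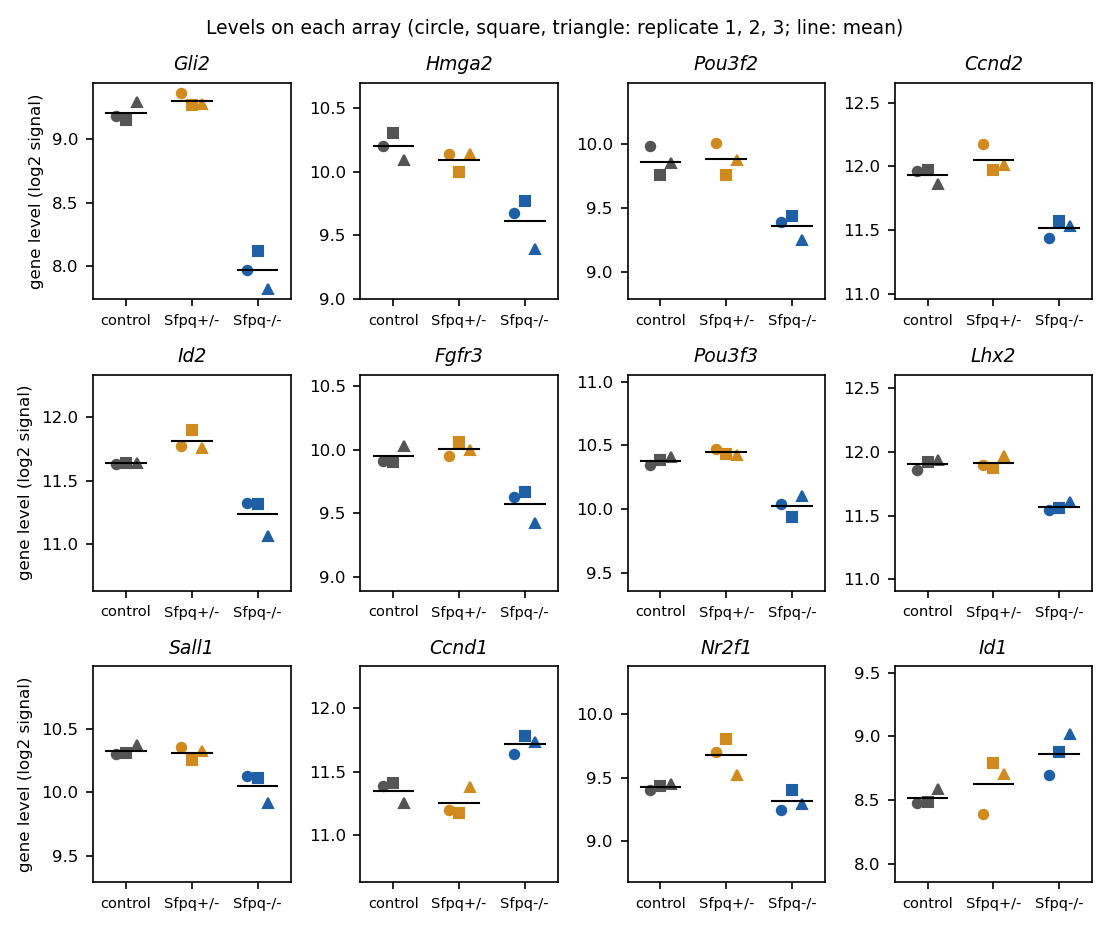
Level (vertical axis, log2 signal, each panel spanning the same height) on each array of 12 of the 34 genes in control, Sfpq+/- and Sfpq-/- cortex, with symbols for replicates 1 to 3 and lines for group means. The Sfpq-/- points lie below all others for Gli2, Hmga2, Pou3f2, Ccnd2, Id2, Fgfr3, Pou3f3, Lhx2 and Sall1 and above all others for Ccnd1; for Nr2f1 the Sfpq+/- points are highest.

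Among 25 other measured radial glia genes, 7 fell and 0 rose in Sfpq-/- (28%, where 12.1% of all genes passed). Ddah1, an enzyme that degrades asymmetric dimethylarginine, read 12.07, 11.98 and 12.06 in controls, 12.21, 12.004 and 12.06 in Sfpq+/-, and 10.60, 10.76 and 10.64 in Sfpq-/-, a fall by 1.37 (SE 0.0805, limma adjusted p = 1.86e-06). The RNA-binding protein gene Msi2 read 9.93, 9.84 and 9.88 in controls and 9.13, 9.13 and 9.01 in Sfpq-/- (-0.79). The stem cell receptor gene Nr2e1 (-0.37), Cdon (-0.47), the matrix protein gene Tnc (-0.52) and the SoxE factor Sox8 (-0.30) also fell; Sox8 lost its call without control replicate 1 or 3 (adjusted p = 0.0584 and 0.0819), without Sfpq-/- replicate 1 (0.0735) or with dim probe sets kept (0.0658). Hes1, Hes5 and Notch1, of the Notch pathway, were not called (-0.08, -0.27 and 0.07).

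In Sfpq+/- cortex none of these genes moved far enough from controls to be called. Of the 34 genes, 0 passed limma's test, as did 0% of all 16854 genes, and 2 had an unadjusted p under 0.05, against 715 of all genes. These were Nr2f2 (change 0.35, interval 0.11 to 0.58, unadjusted p = 0.0082, limma adjusted p = 0.886) and Nr2f1 (0.25, interval 0.06 to 0.44, unadjusted p = 0.0159, adjusted p = 0.886). In 6 genes (Sox9, Pou3f3, Id2, Nr2f1, Nr2f2 and Ccnd2) every Sfpq+/- array lay above every control array, and in 0 below, where 8.52% of all genes lay above and 3.99% below. The intervals of the 34 genes ran between -0.43 and 0.58, so changes of up to these sizes were not excluded at this precision.

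Homozygotes were also set against heterozygotes, a comparison that shares the Sfpq-/- arrays with the first. Here 10 of the 34 genes passed, 9 lower and 1 higher, where 11.8% of all genes passed (7.25% lower, 4.58% higher). Gli2 fell by 1.33 (limma adjusted p = 3.29e-06), Id2 by 0.57 (0.000957), Ccnd2 by 0.54 (0.000938), Pou3f2 by 0.52 (0.00309), Hmga2 by 0.48 (0.0109), Fgfr3 by 0.43 (0.00595), Pou3f3 by 0.42 (0.00221) and Lhx2 by 0.34 (0.00609), and Ccnd1 rose by 0.46 (0.00324). Nr2f1 fell by 0.36 (limma adjusted p = 0.0185), a call lost without Sfpq+/- replicate 1 or 2 (adjusted p = 0.0733 and 0.0886) or Sfpq-/- replicate 1 (0.0871). Hmga2 lost its call without Sfpq+/- replicate 1 (adjusted p = 0.0501). With the median of probe sets the calls of Lhx2 (adjusted p = 0.0511), Pou3f3 (0.138), Fgfr3 (change -0.29, 0.187), Hmga2 (0.0629) and Nr2f1 (0.0830) were all lost. Sall1 did not pass here (-0.26, limma adjusted p = 0.0613), but it passed with only probe sets above the 75th percentile (0.0374), the median of probe sets (0.0188), quantile normalization (0.0467) and gene-by-gene array weights (0.0468).

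Over all 34 genes, 20 had Sfpq-/- and control arrays that did not overlap, 15 lower and 5 higher, where 26.9% of all genes did not overlap (10.8% lower, 16.1% higher). Against Sfpq+/-, 18 did not overlap, 16 lower and 2 higher, where 13.6% of all genes were lower and 13.2% higher. The mean level over the 34 genes was 10.25 to 10.30 on control arrays, 10.32 to 10.34 on Sfpq+/- arrays and 10.09 to 10.24 on Sfpq-/- arrays. The Sfpq-/- arrays also spread more: the median SD of the 34 genes was 0.060 in controls, 0.058 in Sfpq+/- and 0.116 in Sfpq-/-. Within Sfpq-/-, array 3 was the lowest for 20 of the 34 genes (58.8%, against 51.7% of all genes) and array 2 the highest for 20.

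Because array-wide shifts cancel within an array, family members were also compared on the same array, in 18 pairs of 9 families. Gli2 minus Gli3 was -1.54, -1.63 and -1.44 in controls and -2.85, -2.84 and -2.85 in Sfpq-/-, a change of -1.31. Ccnd1 minus Ccnd2 was -0.58, -0.56 and -0.61 in controls, -0.97, -0.79 and -0.63 in Sfpq+/-, and 0.20, 0.21 and 0.20 in Sfpq-/-, a change of 0.79 against control. In the Gli and Ccnd differences the Sfpq-/- arrays lay closer together than in the levels. In some other pairs they lay farther apart. For Id1 minus Id2 the SD in Sfpq-/- was 0.29, against 0.16 for Id1 and 0.15 for Id2. For Pou3f2 minus Pou3f3 it was 0.17, against 0.095 for Pou3f2 and 0.082 for Pou3f3. Id1 minus Id2 changed by 0.75, Id2 minus Id3 by -0.70, Id1 minus Id4 by 0.52, Emx1 minus Emx2 by -0.38, Nr2f1 minus Nr2f2 by -0.36, Fgfr1 minus Fgfr3 by 0.31 and Sox9 minus Sox21 by 0.29. Pou3f2 minus Pou3f3 changed by -0.15, with overlapping arrays (exact permutation test, two-sided, p = 0.4). In 12 of the 18 pairs the Sfpq-/- and control arrays did not overlap, which gives the smallest p that 3 against 3 allows (exact permutation test, two-sided, p = 0.1, adjusted over the pairs 0.15). Some genes stand in several pairs, and the share without overlap among other pairs of genes was not computed. The differences show unequal change within a pair, not which member changed.

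**Figure D4:**
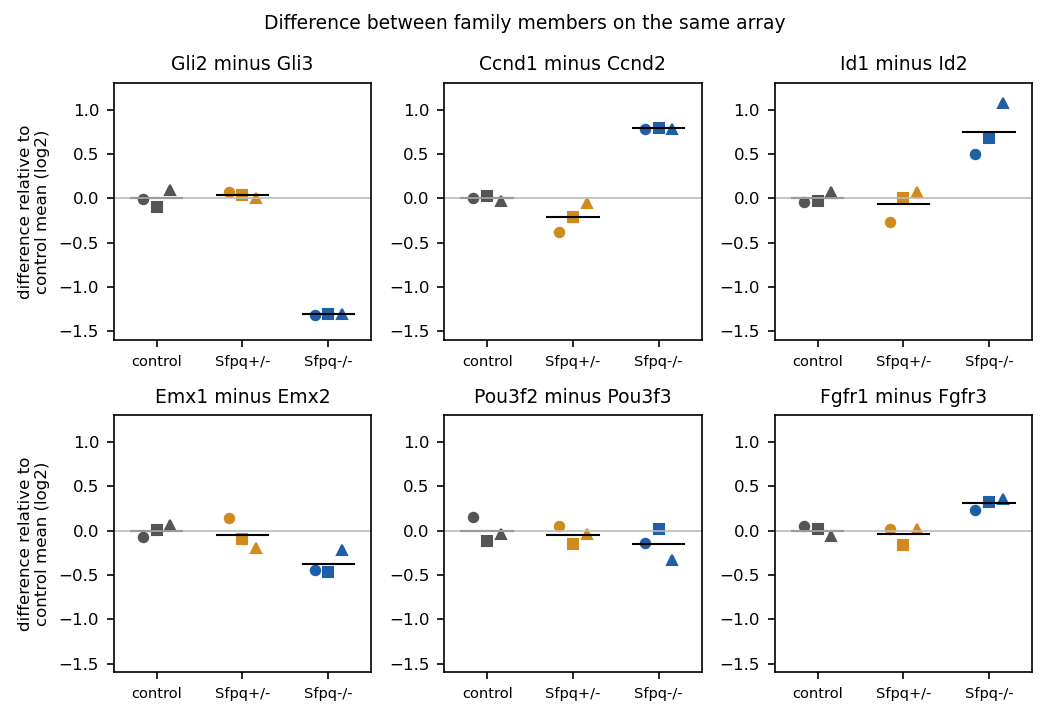
Difference between family members on the same array, relative to its control mean (vertical axis, log2), for 6 pairs in control, Sfpq+/- and Sfpq-/- cortex, with symbols for replicates 1 to 3 and lines for group means. The Sfpq-/- points lie near -1.31 for Gli2 minus Gli3 and near 0.79 for Ccnd1 minus Ccnd2, and they overlap the controls for Pou3f2 minus Pou3f3.

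The 34 genes were read by 531 annotated probe sets, of which 519 (97.7%) were kept, and 18 of these passed the test by themselves, 17 lower (14 of Gli2 and 3 of Hmga2) and 1 higher (of Gli3). The other called genes, with from 4 (Id2) to 29 (Fgfr3) kept probe sets each, had none that passed by itself. Their probe sets changed mostly in 1 direction within a gene. Gene length was set beside these calls. Over the whole array, 608 of 2254 genes spanning at least 100 kb were lower and 133 higher. Of the 34 genes, 5 span at least 100 kb, and 2 of these, Gli2 and Hmga2, were lower, while Gli3, Prom1 and Fgfr2 were not called. Of the 12 genes of 10 to 100 kb, 4 were lower (Ccnd2, Fgfr3, Lhx2 and Sall1), where 324 of the 9802 genes of that class on the array were lower and 616 higher. Of the 17 shorter ones 3 were lower (Pou3f2, Id2 and Pou3f3) and Ccnd1 was higher, where 85 of 4651 were lower and 254 higher. The part of gene length in these changes was not tested.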

How the data were processed

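The authors deposited log2 signals per probe set, for which the submitters' processing notes name Affymetrix Expression Console, version 1.2.0.20. The sources used here do not give the normalization, the summary method or the genome build; the log2 scale was read from the values. Of 1256831 probe sets on the platform, 318760 had 1 gene symbol in its annotation, 6684 several and 931387 none. Probe sets with a mean above the median of all (5.64) were kept, and the mean of at least 3 gave a gene level. All 9 arrays entered 1 linear model with 3 group means and no covariate (limma 3.58.1, R 4.3.3, Benjamini-Hochberg over 16854 genes, threshold 0.05, two-sided); probe sets were tested alike. The model was tested on simulated data. Alternatives were other filters on dim probe sets, the median of probe sets, quantile normalization, only the groups compared, a replicate block, embryo sex, array weights and leaving out each array. Members and gene lists were chosen with earlier results of these data known. Values on every array were given for called members, for members with no overlap and a change of at least 0.3, and for their families; of each other list, up to 6 called genes with the smallest adjusted p were named, with a few uncalled genes of known role chosen after their values were seen. Gene spans came from RefSeq GRCm38.p6 and promoter windows from its table.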

Additional observations from a re-analysis of the deposited data

How the results depend on the processing

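No change of the 34 genes that passed the test reversed under any of the alternatives run. Against control, Gli2, Hmga2, Pou3f2, Ccnd2 and Id2 kept their call in all 14 alternatives; the losses for Lhx2, Pou3f3, Fgfr3, Sall1 and Ccnd1 stand beside their values. With the median of probe sets, 6 of the 34 genes passed between Sfpq-/- and Sfpq+/-, 1 higher and 5 lower. In that setting 1504 of all 16854 genes passed (1994 as reported). With only probe sets above the 75th percentile, 1 gene of the array, lower, passed between Sfpq+/- and control, 39 probe sets of the 34 genes passed against control (18 as reported) and 8 departed from their gene mean (5 as reported). Leaving out 1 array at a time, 1311 (without Sfpq-/- replicate 1) to 2453 (without Sfpq-/- replicate 3) genes of the array passed in Sfpq-/- against control (2040 as reported, 1343 without control replicate 2), 0 to 1 in Sfpq+/- against control (1 without Sfpq+/- replicate 2), and 2 to 6 probe sets departed. These were 3 without control replicate 1 and 2 without control replicate 3 or Sfpq-/- replicate 1. With gene-by-gene array weights, chosen after seeing the data, 4612 genes passed in Sfpq-/- against control (2756 higher, 1856 lower) and 3640 against Sfpq+/- (1735 higher, 1905 lower). The planned array weights over all genes did not converge and gave no usable value. Samples with the same replicate number did not deviate together in every pair (correlations -0.06 to 0.57, and 0.30 to 0.57 for replicate 3). Correlations between unlike numbers were not computed, so pairing by number was not tested. With the replicate block, 12 of the 34 genes passed against control, Id1 (limma adjusted p = 0.0232) and Id3 (0.0412) being added. There 2469 of all 16854 genes passed (2040 as reported). Between Sfpq-/- and Sfpq+/- 11 of the 34 passed, where 2367 of all genes passed (1994 as reported). None of the 34 passed between Sfpq+/- and control, as did 0 of all genes. The median SE of the change of a gene was 0.096 with 3 arrays per group, so a gene that did not pass is not shown to be unchanged.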
